A study of Mus musculus with 6 samples.

Results

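The regions described here are ATAC-seq peaks at gene starts that were called in both genotypes of a mouse cardiac fibroblast study and were narrower than 3 kb. They were selected on measured values: a WT peak on chromosomes 1 to 19 had to be under 3000 bases wide, overlap a KO peak, and have its summit within 1 kb of the start of a protein-coding gene of the RNA table. Of 123935 WT peaks, 121651 lay on these chromosomes, 87977 of them were under 3 kb and overlapped a KO peak, and 10134 of those met the distance criterion. These 10134 peaks, called member peaks below, had 9872 different genes as their nearest start, of 20704 protein-coding starts, and these are called member genes. A gene with more than 1 member peak (262 genes, against 9610 with 1) was represented by the peak with the highest WT fold.

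The study compared cardiac fibroblasts labelled Acta2 KO with wild-type cells, Acta2 being the gene of smooth muscle alpha-actin. RNA-seq covered 2 Acta2 KO samples and 2 WT samples, while 1 KO and 1 WT sample had ATAC-seq. Per the labels' protocols, WT and Acta2 fl/fl fibroblasts were transduced with Adeno-Cre and treated with TGF-β for 2 days. The labels of the same samples also describe Tcf21-lineage eGFP+ cells, sorted from hearts after ligation of the left coronary artery at 9 weeks of age, from mice that received tamoxifen, to activate MerCreMer, from the age of 6 weeks (75 mg/kg daily over 5 days) and again around surgery. They do not say which of these sources a library came from, nor whether replicates came from separate animals or cultures, so p-values reflect no more than the spread of these few samples, and that spread may be technical. Both genotypes share whichever of these treatments applied. In the KO group the alleles named are Acta2 fl/fl with Cre, and the label of the control is WT.

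A promoter is the stretch of DNA at a gene's start where RNA polymerase II and general transcription factors assemble. In ATAC-seq a transposase cuts DNA that is not wrapped in nucleosomes, and active promoters are among the most cut sites of the genome. Many mammalian promoters lie in CpG islands, which are rich in GC and in the CpG dinucleotide and are often open even where the gene makes little RNA, while a smaller class of promoters is poor in CpG and often drives tissue-restricted or inducible genes.

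Promoters of 8 member genes are printed to show how the sequences of the genes named below differ. B2m had the highest RNA level of all member genes, Sparc the highest among genes with a weak member peak, and Mamdc4 the highest WT fold among genes under 1 TPM in every sample. Cda and Hmga1b had the largest RNA differences between the genotypes among called genes that averaged a log2 CPM of 2 or more, St3gal4 and Kbtbd2 the largest differences in peak rank among genes tested for RNA, and Gm10800 the highest member peak. Each sequence runs 5′ to 3′ on the gene's strand from 220 bases before the GENCODE M21 start to 30 bases after it, 250 bases in all, read from the RefSeq copy of GRCm38 (mm10). Capitals mark matches, on either strand, to the GC box GGGCGG, the CCAAT box CCAAT, ETS CCGGAAG, NRF1 GCGCATGCG, CRE TGACGTCA, AP-1 TGANTCA, TEAD GGAATG, the TATA box TATAAA and the CArG box. A base can belong to matches of more than 1 motif, and a CArG box can contain the letters of a TATA box.
B2m promoter, chr2:122147466-122147715, + strand: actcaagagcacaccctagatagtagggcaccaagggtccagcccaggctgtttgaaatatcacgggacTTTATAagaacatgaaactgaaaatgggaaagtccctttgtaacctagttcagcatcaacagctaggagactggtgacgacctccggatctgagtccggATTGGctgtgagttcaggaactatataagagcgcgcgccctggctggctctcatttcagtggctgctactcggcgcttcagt
Sparc promoter, chr11:55423154-55423403, - strand: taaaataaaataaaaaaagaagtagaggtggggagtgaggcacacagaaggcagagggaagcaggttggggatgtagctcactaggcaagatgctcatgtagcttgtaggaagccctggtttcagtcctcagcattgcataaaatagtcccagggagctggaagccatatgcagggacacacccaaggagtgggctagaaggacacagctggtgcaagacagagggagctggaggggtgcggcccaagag
Mamdc4 promoter, chr2:25574816-25575065, - strand: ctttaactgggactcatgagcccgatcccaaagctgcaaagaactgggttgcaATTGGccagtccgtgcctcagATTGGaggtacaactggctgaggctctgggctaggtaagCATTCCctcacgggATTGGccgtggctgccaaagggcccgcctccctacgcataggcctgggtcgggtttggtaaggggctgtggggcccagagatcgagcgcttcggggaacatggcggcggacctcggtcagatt
Cda promoter, chr4:138367963-138368212, - strand: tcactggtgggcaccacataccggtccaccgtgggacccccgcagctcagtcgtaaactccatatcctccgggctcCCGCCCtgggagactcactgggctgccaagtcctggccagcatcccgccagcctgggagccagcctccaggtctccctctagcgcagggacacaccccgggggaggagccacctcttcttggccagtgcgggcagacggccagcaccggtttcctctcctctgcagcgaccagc
Hmga1b promoter, chr11:120762574-120762823, + strand: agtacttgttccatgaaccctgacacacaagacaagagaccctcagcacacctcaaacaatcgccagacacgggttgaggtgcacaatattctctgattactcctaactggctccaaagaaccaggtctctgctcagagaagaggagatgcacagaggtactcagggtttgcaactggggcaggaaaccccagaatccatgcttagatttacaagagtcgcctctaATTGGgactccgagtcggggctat
St3gal4 promoter, chr9:35119239-35119488, - strand: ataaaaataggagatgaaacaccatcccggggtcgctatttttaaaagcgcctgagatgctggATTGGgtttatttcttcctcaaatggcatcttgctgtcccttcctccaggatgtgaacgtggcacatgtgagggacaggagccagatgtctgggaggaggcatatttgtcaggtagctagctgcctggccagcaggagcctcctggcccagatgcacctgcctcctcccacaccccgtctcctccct
Kbtbd2 promoter, chr6:56797784-56798033, - strand: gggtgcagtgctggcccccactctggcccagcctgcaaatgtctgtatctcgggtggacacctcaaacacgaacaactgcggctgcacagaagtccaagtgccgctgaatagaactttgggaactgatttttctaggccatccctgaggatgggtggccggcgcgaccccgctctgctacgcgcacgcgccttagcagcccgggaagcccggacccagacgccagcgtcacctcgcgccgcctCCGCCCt
Gm10800 promoter, chr2:98667272-98667521, - strand: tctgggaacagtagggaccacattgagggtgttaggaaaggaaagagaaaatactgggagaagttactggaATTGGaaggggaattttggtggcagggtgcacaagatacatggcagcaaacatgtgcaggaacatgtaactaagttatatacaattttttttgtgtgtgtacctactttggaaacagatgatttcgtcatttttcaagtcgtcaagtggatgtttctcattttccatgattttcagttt

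The printed promoters differed in base composition. The Kbtbd2 window had 64.0% GC and a CpG ratio (observed over expected CpG) of 0.791, and its only match was a GC box from base 24 of the transcript. The Cda window had 67.6% GC, a CpG ratio of 0.469 and a GC box 144 bases before the start. In the Mamdc4 window, with 60.4% GC, there were 3 CCAAT boxes, 167, 146 and 93 bases before the start, and 1 TEAD match 107 bases before it. The B2m window held a CCAAT box 52 bases before the start and a TATA box match 151 bases before it. Only the exact letters TATAAA were counted, so the run tatataag, nearer to the B2m start, is not marked. In contrast, the Sparc window had 52.0% GC, a CpG ratio of 0.0661 and no match, and its member peak had its summit upstream of the annotated start, at −832 bases. Of all 20704 protein-coding promoter windows of this length, 41.7% held a GC box, 35.1% a CCAAT box, 10.9% a TATA box, 11.3% a TEAD match, 10.2% an ETS match, 5.82% an AP-1 match, 2.30% a CRE, 2.05% an NRF1 match and 1.15% a CArG box. The same shares among the 9872 member genes were 57.3% for the GC box, 34.5% for the CCAAT box and 6.26% for the TATA box. A match describes the letters of a window and does not show that a factor binds there.

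Total estimated counts were 11370115 and 10864365 in the KO RNA samples and 8429166 and 9096811 in the WT samples. Acta2, the targeted gene, was at 323 and 339 TPM in the KO samples, against 2696 and 2760 TPM in the WT samples, and the groups did not overlap. TPM here means counts per kb of merged exons, scaled to the same sum in each sample. Acta2 is not a member gene: its start had a shared peak of 3 kb or more. Summed over 12 fibroblast markers, RNA came to 3798 and 3779 CPM (counts scaled to library size) in KO, against 4801 and 4640 CPM in WT, and none of the 12 was at 0 in all samples. The 12 macrophage and leukocyte markers summed to 181 and 184 CPM in KO, against 103 and 98.5 CPM in WT, with 1 of them at 0 in all samples, and the 12 endothelial markers to 509 and 523 CPM in KO, against 401 and 377 CPM in WT. The part of these differences in the RNA results below was not tested, and in bulk samples fewer cells of a type and less RNA per cell cannot be told apart.

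Promoter peaks were stronger and wider than most other shared peaks under 3 kb. The fold is the authors' enrichment at a peak's summit over their library's background, and its percentile is the share of the peaks of the same list that lie below it, with ties counted at their middle. The median member peak stood at the 90.2 percentile of the KO list and the 90.2 percentile of the WT list, with a fold of 18.3 in KO and 16.02 in WT. The 77843 shared peaks under 3 kb that lay farther from a start had median percentiles of 58.4 in KO and 55.4 in WT. Above the 90th percentile of the list lay 51.4% of the member peaks in KO and 51.6% in WT, but 5.75% of the other shared peaks in WT. Member peaks had a median width of 1667 bases in KO and 1598.5 bases in WT, against 880 and 809 bases for the other shared peaks in KO and in WT. Since the members were chosen from these peak lists, these values are a description with no test.

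Summits sat mostly just downstream of the annotated start, taken as the first base of the GENCODE gene record on its strand. Which starts were in use in these cells was not determined. The median summit was 149 bases downstream, 76.2% of the summits were downstream, and 6437 (63.5%) were within 250 bases of the start. The middle 90% of summits ran from 426 bases upstream to 703 bases downstream. Peaks of Khsrp and Fryl, at 2999 bases, were just inside the width limit, and those of Gfod1 and Usp24, at 3000 bases, just outside it. For the distance limit, the peaks of Itgb7, 1000 bases downstream, and Gm45140, at −999 bases, were just inside, and those of Mpc1 and Dapp1, both 1002 bases from the start, just outside. A second protein-coding start lay within 1 kb of 918 member summits (9.06%).

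RNA levels were higher at higher-ranked promoter peaks through the lower part of the range and then levelled off. Over the 9872 member genes, Spearman's rho between the fold percentile in the genotype's own list and the genotype's mean TPM was 0.462 in KO and 0.469 in WT. With single RNA samples it was 0.460 and 0.461 in KO, and 0.467 and 0.467 in WT. These are correlations across genes, which are not independent replicates and share 1 ATAC library per genotype, so no p-value is given. Among member genes with a fold up to the median, rho was 0.440 in KO and 0.459 in WT, and among those above it 0.0767 in KO and 0.0922 in WT. In the top 20% by fold it was slightly negative, −0.0065 in KO (1929 genes) and −0.0308 in WT (1906 genes). Limited to the 7481 genes that passed the filter on low counts, rho was 0.190 in KO and 0.198 in WT.

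Seen by deciles of member genes, the rank mainly separated genes with and without RNA. In the lowest decile by fold the median RNA level was 0.115 TPM in KO and 0.0783 TPM in WT, and 74.8% of the genes in KO and 76.6% in WT were under 1 TPM. The fifth decile had medians of 6.94 TPM in KO and 6.64 TPM in WT. By the seventh decile the medians were 12.0 TPM in KO and 10.97 TPM in WT, and the highest decile had 13.9 TPM in KO and 13.6 TPM in WT, with 9.01% of genes under 1 TPM in KO and 9.21% in WT. The median of the ninth decile, 14.6 TPM in KO and 13.65 TPM in WT, was slightly above that of the highest in both genotypes. In the highest decile the fold ran up to 283 in KO and 382 in WT.

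**Figure D1:**
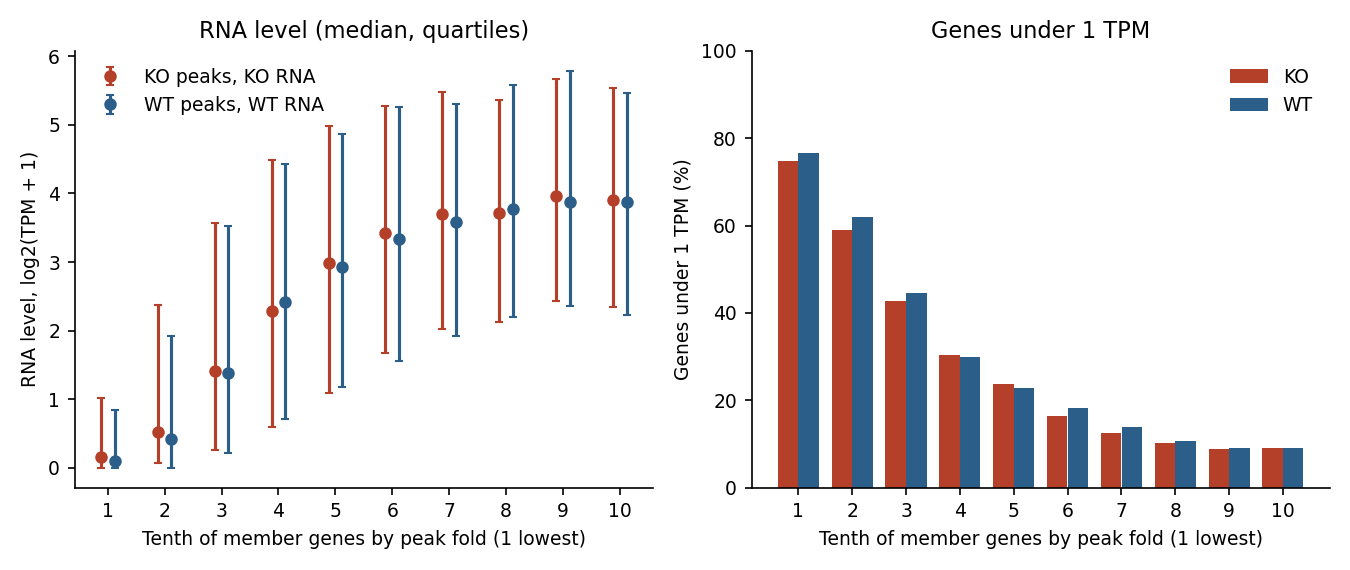
RNA level by decile of peak fold. Left, log2(TPM + 1) of member genes (points, medians; bars, the middle 50% of genes) and right, the percentage of genes under 1 TPM, each for KO (red) and WT (blue) by decile of the fold in the same genotype's peak list (about 987 genes each). Medians climbed to about the seventh decile and then stayed between 10.97 and 14.6 TPM, while the share under 1 TPM fell to 9.01% in KO and 9.21% in WT in the highest decile.

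Starts without a member peak had other RNA levels. Assigning every start to a class, 10800 had a shared peak under 3 kb within 1 kb, with a median of 5.69 TPM in KO and 5.41 TPM in WT. The 2087 starts whose shared peak was 3 kb or wider had 19.6 TPM in KO and 17.8 TPM in WT. The 7436 starts with no WT summit within 1 kb had a median of 0 TPM in both genotypes, and 82.3% of them in KO and 82.5% in WT were under 1 TPM. Among the member genes themselves, 2503 (25.4%) were under 1 TPM in all 4 samples and 605 had no count in any of them, so an open promoter in both genotypes did not always come with measured RNA.

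The member genes with the highest RNA were B2m, Ccl7, Rplp0, Sparc and Igfbp7. B2m, the light chain of MHC class I molecules, was at 8874 and 8850 TPM in KO, against 7662 and 7544 TPM in WT. Ccl7, a chemokine that attracts monocytes, was at 7003 and 6989 TPM in KO, against 7188 and 7167 TPM in WT. Rplp0, a protein of the ribosomal stalk, was at 4518 and 4382 TPM in KO, against 4645 and 4606 TPM in WT. The difference at Ccl7 was small, and its call was lost with DESeq2, with other scalings, without the count filter, without KO replicate 2 and without WT replicate 1. The call of Rplp0 was lost without KO replicate 2. The fold percentiles of these 3 genes ran from 83.6 to 99.0 in KO and from 88.5 to 98.2 in WT. Sparc, a collagen-binding matricellular protein, was at 4004 and 3954 TPM in KO, against 4624 and 4589 TPM in WT, with a percentile of 77.5 in KO and 69.9 in WT. Igfbp7, a secreted binding protein of the insulin-like growth factor system, was at 3989 and 3834 TPM in KO, against 3930 and 3785 TPM in WT, and its samples overlapped.

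The strongest peaks did not belong to the genes with the most RNA. Gm10800 and Gm10801, predicted genes on chromosome 2, stood far above the rest. At each of them the KO and WT summits lay 1 base apart. Whether folds this high reflect open chromatin or the alignment of reads there was not tested, so they are not taken as the most open promoters. Gm10800 had a fold of 283 in KO and 382 in WT, and Gm10801 a fold of 202 in KO and 216 in WT. Gm10800 had 0.424 and 4.497 TPM in KO, against 0.984 and 0 TPM in WT, which comes from at most 11.6 estimated counts in a sample. Next came 9430038I01Rik, with a fold of 59.1 in KO and 52.99 in WT and 2.33 and 2.40 TPM in KO, against 2.03 and 2.44 TPM in WT. Usp5, a deubiquitinase, had a fold of 54.0 in KO and 52.6 in WT, and its RNA was at 127 and 124 TPM in KO, against 112 and 105 TPM in WT. Fcgr3, a low-affinity receptor for IgG on myeloid cells, had a fold of 34.9 in KO and 51.8 in WT with RNA of 7.002 and 10.01 TPM in KO, against 4.41 and 4.21 TPM in WT.

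Some strong peaks stood at genes with almost no RNA. In the highest decile by WT fold, 58 genes were under 1 TPM in all 4 samples, and 11 of them (18.97%) had another gene at 1 TPM or more starting within 1 kb of the summit, against 127 of the other 930 (13.7%). The highest WT fold of the 58 was at Mamdc4, which codes for a MAM domain protein, with a fold of 41.7 in KO and 43.1 in WT. It had no estimated count in 3 samples and 1 in a WT sample, while Phpt1, a phosphohistidine phosphatase whose start lies within the same 1 kb, averaged 41.3 TPM. Likewise Gm44502, with a fold of 36.6 in KO and 37.8 in WT, shares its start region with Chkb, a choline kinase at 20.2 TPM. Its own RNA is uncertain, since 95.2% of the 100-base windows of its transcripts also occur in transcripts of other genes. No second start lay within 1 kb for Tesmin (fold 45.9 in KO and 40.7 in WT), Rccd1 (51.9 in KO and 38.6 in WT) or Zfp446 (32.3 in KO and 37.8 in WT). Tesmin reached at most 0.249 TPM and Rccd1 at most 0.380 TPM in a sample, Rccd1 overlaps Prc1 in the annotation, and Zfp446 was between 0.857 and 0.915 TPM.

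The reverse case, high RNA with a weak peak at the annotated start, was led by Sparc, which also held a WT peak of fold 20.5 and 3726 bases elsewhere in the gene. The 2584 member genes with the lowest WT folds, up to 10.7, held 259 with at least 17.6 TPM on average, the top 10% of them. Of these 259, 149 (57.5%) had a stronger WT peak elsewhere in the gene or within 1 kb of it, and 41 a WT peak of 3 kb or more, against 1149 (49.4%) and 174 of the other 2325. H3f3b, a gene of histone H3.3, had a member peak with a fold of 4.68 in KO and 4.11 in WT, but a WT peak of fold 26.7 in the gene, and RNA of 1806 and 1780 TPM in KO, against 1649 and 1674 TPM in WT. For Mmp3, stromelysin-1, the member peak was the strongest WT peak of the gene, at a fold of 6.80 in KO and 7.39 in WT. Mmp3 RNA was at 2071 and 2117 TPM in KO, against 3824 and 3938 TPM in WT. Calm2, a calmodulin gene, had 1901 and 1866 TPM in KO, against 2032 and 2012 TPM in WT, with a percentile of 68.2 in KO and 79.7 in WT. Ldha, lactate dehydrogenase A, had a weak member peak in WT only, standing at the 94.4 percentile in KO and the 55.4 percentile in WT, and its KO summit lay 1490 bases away and outside the WT peak. Its RNA was at 1611 and 1563 TPM in KO, against 1478 and 1498 TPM in WT, and did not pass the test.

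Between the genotypes, promoter peaks kept their rank more closely than the other shared peaks did. Spearman's rho between the KO and the WT percentile was 0.899 over the member peaks and 0.729 over the other shared peaks, and the median absolute change was 2.78 and 9.599 percentile points. With 1 library per genotype there is no replicate for this comparison and no test. A rank at least 20 points higher in KO was found for 402 member peaks (3.97%), where 12.3% of all shared peaks under 3 kb were. A rank at least 20 points lower in KO was found for 198 (1.95%), where 9.47% of all shared peaks under 3 kb were. Both shares of the member peaks were below those of all such peaks. Member peaks started from higher ranks than the others, and the part of this in the shares was not tested.

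Many of the larger rank rises came with a change in how peaks were split. Of the 402 peaks that ranked at least 20 points higher in KO, 178 had the KO summit outside the WT peak and 157 overlapped a KO peak that spanned more than 1 WT peak. Of the 198 that ranked lower, these numbers were 8 and 5. The opposite kind of split, a WT peak that overlapped more than 1 KO peak, was found for 6 of the 402 and 16 of the 198. Any of the 3 applied to 196 of the 402 and 26 of the 198. Counting only the 8918 one-to-one pairs with the KO summit inside the WT peak, a selection made after these values were seen, 206 (2.31%) ranked at least 20 points higher in KO and 172 (1.93%) lower, and rho between the genotypes was 0.912.

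**Figure D2:**
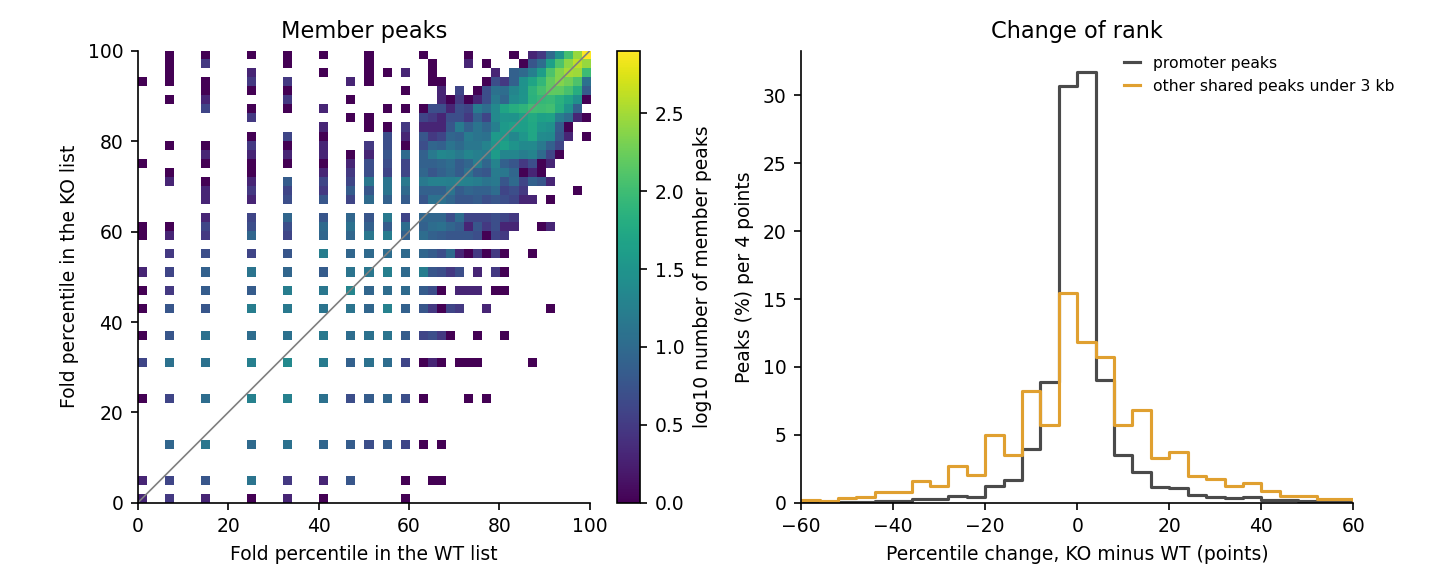
Rank of the peaks in KO and WT. Left, the fold percentile in the KO list against that in the WT list for the 10134 member peaks (colour, log10 number of peaks; line, equality); folds come in whole steps, so low percentiles are tied and leave empty strips. Right, the change in percentile points, KO minus WT, for member peaks (grey) and the 77843 other shared peaks under 3 kb (yellow), whose median absolute changes were 2.78 and 9.599 points.

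St3gal4, a sialyltransferase, had the largest rise in rank among the genes tested for RNA. Its percentile was 97.0 in KO and 15.3 in WT, but the KO peak spanned 2 WT peaks, its summit was 2241 bases away and the gene held a WT peak of fold 18.1. Nupr1, Nkx2-9, Sema4c and Bcl2l15 came next, and their KO peaks too spanned more than 1 WT peak, with summits 1133 to 1987 bases from the WT summit and outside the WT peak. St3gal4 RNA was at 12.8 and 13.3 TPM in KO, against 22.2 and 21.5 TPM in WT, so it was lower in KO (log2 fold change −0.77, SE 0.13, edgeR adjusted p = 2.05e-05). Nupr1, a stress-induced chromatin protein, was at 202 and 192 TPM in KO, against 156 and 140 TPM in WT. The RNA of the other 3 did not pass the test.

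The falls in rank were led by Kbtbd2, an adaptor of cullin 3 ubiquitin ligases, at the 42.6 percentile in KO and the 91.7 percentile in WT. Its WT peak overlapped 2 KO peaks, and its RNA was at 31.4 and 36.7 TPM in KO, against 28.0 and 25.7 TPM in WT. Upk1a, Zfp800 and Tmem171 were one-to-one pairs and stood at the 13.5 percentile in KO, against 59.1, 55.4 and 55.4 in WT. Klf12, a Krüppel-like factor, stood at 36.9 in KO and 80.8 in WT, and its WT peak, like that of Kbtbd2, overlapped 2 KO peaks. Of these 5 genes, Tmem171, a membrane protein, had the clearest RNA difference, and it ran against its rank. It was at 22.1 and 23.0 TPM in KO, against 7.80 and 8.66 TPM in WT (log2 fold change 1.42, SE 0.18, edgeR adjusted p = 4.4e-07).

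Among one-to-one pairs the largest rises were at Bcl2a1d, Gm11627, Mmp27, Mall and Prim1, named after their values were seen. Mall, a MAL-family membrane protein, was at the 58.4 percentile in KO and the 15.3 percentile in WT, and its RNA was at 17 and 17 estimated counts in KO, against 0 and 0 in WT. Prim1, the catalytic subunit of DNA primase, was at the 66.1 percentile in KO and the 24.7 percentile in WT, with 5.34 and 6.09 TPM in KO, against 4.03 and 4.33 TPM in WT, and its RNA did not pass the test.

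Of the 9872 member genes, 7481 passed the filter on low counts and 2391 did not. Of those 7481, 1239 (16.6%) were higher in KO and 1293 (17.3%) lower at an edgeR adjusted p under 0.05, where 18.3% of all 12192 tested genes were higher and 17.4% lower. Together 33.8% of the tested member genes were called, against 35.7% of all tested genes, and 38.6% of the 4711 tested genes that are not member genes. The shares lie near the background, and the member genes' share of calls is no result about them. The tested member genes had a median of −0.01 on the log2 fold scale, which reflects the balance of rises and falls and not their size. Differences of the called member genes were mostly small, with a median absolute log2 fold change of 0.401, against 0.404 for all called genes. In all, 201 of the genes called higher and 133 of those called lower reached 2-fold. That is 13.2% of the called member genes, against 14.0% of all called genes. With DESeq2 in place of edgeR, 469 member genes were higher and 624 lower, and with an assumed biological coefficient of variation of 0.2 the counts were 125 and 90.

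Among called member genes averaging a log2 CPM of 2 or more, with no overlap of the samples, the largest rises were at Cda, Map3k1, Myh11, Ang2 and Rpl29. Cda, cytidine deaminase of the pyrimidine salvage pathway, was at 45.6 and 36.1 TPM in KO, against 0.627 and 1.77 TPM in WT (log2 fold change 5.01, SE 0.31, edgeR adjusted p = 5.4e-13). Its promoter peak also ranked higher, at the 90.7 percentile in KO and the 67.6 percentile in WT, in a one-to-one pair. Map3k1, a kinase upstream of JNK and ERK, was at 2.45 and 2.82 TPM in KO, against 0.305 and 0.286 TPM in WT, and its peak stood at the 86.0 percentile in KO and the 81.9 percentile in WT. Myh11, the smooth muscle myosin heavy chain, was at 4.10 and 4.35 TPM in KO, against 0.598 and 0.441 TPM in WT, while its peak ranked at 58.4 in KO and 65.1 in WT. Ang2, a ribonuclease of the angiogenin family, was at 29.6 and 30.3 TPM in KO, against 4.10 and 3.40 TPM in WT. Rpl29 (1102 and 1052 TPM in KO, against 151 and 139 TPM in WT) is uncertain, since 43.4% of 100-base windows of its transcripts also occur in transcripts of other genes.

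By the same rule the largest falls were at Hmga1b, Epha3, Adam23, Lmtk2 and Serpina3g. Hmga1b, a copy of a gene for an architectural chromatin protein, was at 11.7 and 8.80 TPM in KO, against 346 and 339 TPM in WT, but 79.4% of its windows are shared with other genes and its value is uncertain. Epha3, an ephrin receptor, was at 0.447 and 0.412 TPM in KO, against 2.73 and 2.70 TPM in WT (log2 fold change −2.68, SE 0.27, edgeR adjusted p = 7.4e-09). Lmtk2, a membrane-anchored kinase, was at 1.59 and 1.64 TPM in KO, against 7.12 and 7.89 TPM in WT. Serpina3g, a serine protease inhibitor, was at 7.51 and 8.43 TPM in KO, against 33.7 and 38.1 TPM in WT. The peak percentile of Hmga1b fell by 3.18 points, those of Epha3, Lmtk2 and Serpina3g moved less, and that of Adam23, a membrane protein of the disintegrin family, fell by 12.2 points.

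Across member genes, changes in promoter rank and in RNA went together only weakly. Over 6709 tested genes with a one-to-one pair and the KO summit inside the WT peak, Spearman's rho between the percentile change and the RNA log2 fold change was 0.0650. Of the 203 genes whose percentile was more than 10 points higher in KO, 26.6% were called higher and 13.3% lower in RNA, and of the 221 whose percentile was more than 10 points lower, 15.8% were called higher and 21.3% lower. Of the 5316 whose percentile moved by under 5 points, 14.8% were called higher and 17.2% lower. Seen from the RNA side, the percentile was higher in KO for 101 of the 175 genes called at least 2-fold higher and for 48 of the 122 called at least 2-fold lower. It was higher for 2235 of 4493 genes that were not called. The median change was 0.70 points for the first set, −1.12 points for the second and −0.03 points for the uncalled genes.

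**Figure D3:**
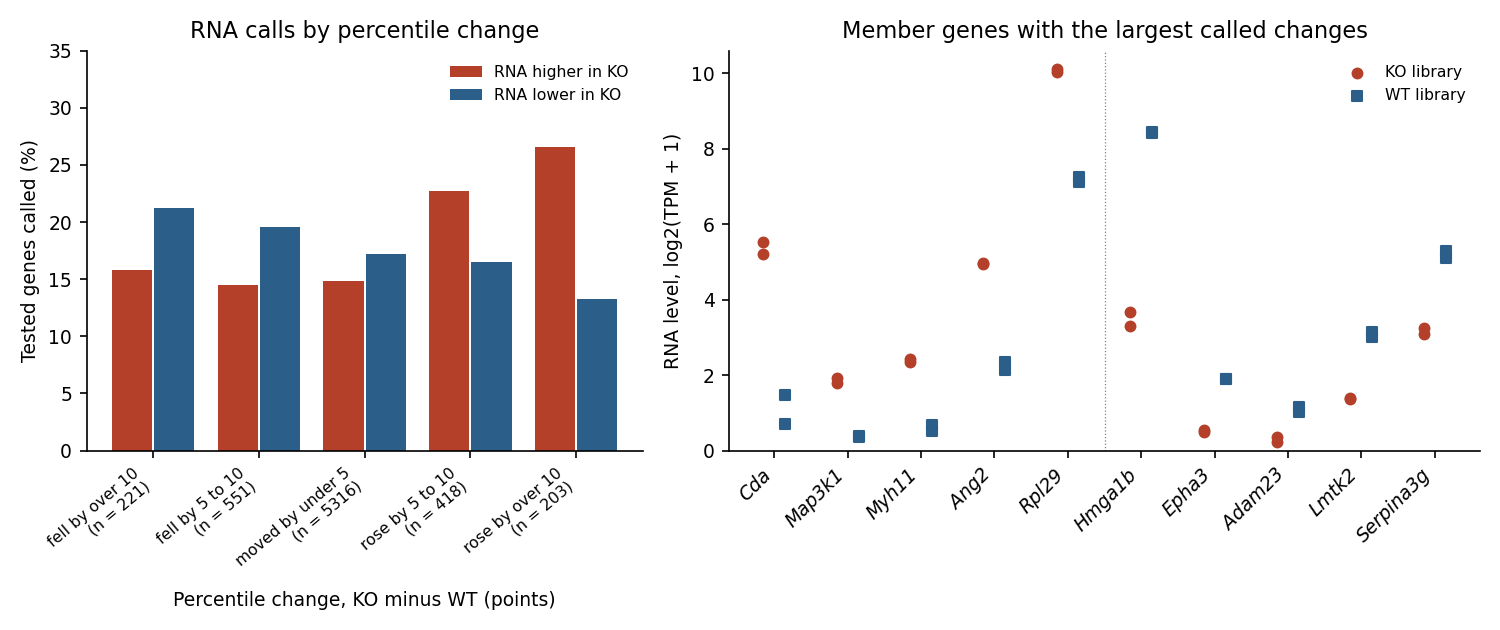
RNA differences and promoter rank. Left, the percentage of tested member genes with a one-to-one peak pair and the KO summit inside the WT peak that were called higher (red) or lower (blue) in KO, by the percentile change of their peak; 26.6% were called higher where the rank was over 10 points higher in KO, against 15.8% where it was over 10 points lower. Right, log2(TPM + 1) in each sample (KO, red circles; WT, blue squares) of the 5 largest called rises, left of the dotted line, and the 5 largest falls; genes were chosen for samples that do not overlap.

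Gene lists are given next with their member genes called, to be read against the 18.3% higher and 17.4% lower of all tested genes. Of 39 ribosomal protein genes, 19 were member genes and 16 had a shared peak of 3 kb or more. The 19 peaks had a median percentile of 94.8 in KO and 94.9 in WT. Of the 19 genes, 18 were lower in KO and 1 did not pass the test, and their median log2 fold change was −0.25. Rpl29, named above for its rise, is a member gene outside this list. Rpl13, a large-subunit protein, was at 998 and 1002 TPM in KO, against 1210 and 1185 TPM in WT, and Rpl5, which binds 5S rRNA, at 351 and 338 TPM in KO, against 424 and 421 TPM in WT. Both values are uncertain, since 34.1% of the windows of Rpl13 and 60.8% of those of Rpl5 occur in other genes' transcripts.

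Proteasome and chaperonin genes had peaks nearly as strong, with a median percentile of 92.1 in KO and 92.2 in WT. Of 31 starts 23 were member genes, 13 of them were lower in KO and 10 did not pass the test, and the median log2 fold change was −0.12. The widest gap was at Cct4, a subunit of the chaperonin TRiC, with 172 and 177 TPM in KO, against 317 and 332 TPM in WT (log2 fold change −0.92, SE 0.04, edgeR adjusted p = 2.2e-17). Its peak hardly moved, at the 97.2 percentile in KO and the 96.9 percentile in WT. Among 28 member genes of the respiratory chain and ATP synthase, of 35 starts, 3 were higher and 8 lower. Their log2 fold changes ran from −0.33 at Atp5o, an ATP synthase stalk subunit, to 0.15. The value of Atp5o is uncertain, since 20.9% of its windows occur in other genes' transcripts. For RNA polymerase II and the general factors, 22 of 30 starts were member genes, 4 were higher and 18 did not pass the test. Polr2a, the catalytic subunit, was at 17.3 and 16.4 TPM in KO, against 13.7 and 12.4 TPM in WT, and its call was lost with DESeq2.

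Sterol synthesis genes combined strong promoter peaks with lower RNA in KO. Of 23 starts 13 were member genes, with a median percentile of 97.0 in KO and 95.9 in WT, and 12 of the 13 were lower in KO, the median log2 fold change being −0.53. Fdps, farnesyl diphosphate synthase, was at 78.1 and 77.8 TPM in KO, against 135 and 138 TPM in WT. Idi1, isopentenyl diphosphate isomerase, was at 42.9 and 45.7 TPM in KO, against 77.8 and 83.7 TPM in WT. The peak of Idi1 stood at the 99.9 percentile in KO and the 99.7 percentile in WT, and that of Fdps at 91.7 in KO and 92.2 in WT, so their ranks stayed in place. Windows shared with other transcripts made up 43.0% for Fdps and 38.7% for Idi1.

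Contractile and stress fibre genes often had wider peaks. Of 29 starts 10 were member genes, while 12 had a shared peak of 3 kb or more. Of the 10, 6 were higher in KO and 1 lower, and their median log2 fold change was 0.40. Csrp1, a LIM protein of actin filaments, was at 591 and 608 TPM in KO, against 301 and 312 TPM in WT. Cnn1, calponin of smooth muscle, was at 154 and 144 TPM in KO, against 51.7 and 61.9 TPM in WT. Lmod1, an actin nucleator of smooth muscle, was at 23.3 and 25.8 TPM in KO, against 5.43 and 6.25 TPM in WT (log2 fold change 2.04, SE 0.13, edgeR adjusted p = 6.9e-13). The promoter peaks ranked close together in both genotypes for Csrp1 (22.1 in KO and 24.7 in WT) and Cnn1 (66.1 in KO and 69.9 in WT), and somewhat higher in KO for Lmod1 (42.6 in KO and 24.7 in WT). Of the pericyte and smooth muscle markers, 4 member genes were tested. Myh11 and Lmod1 were higher in KO, while Steap4, a metalloreductase (log2 fold change −1.15), and Rgs5, a regulator of G protein signalling (−0.60), were lower. All 10 markers of this list summed to 164 and 166 CPM in KO, against 132 and 132 CPM in WT.

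Matrix genes called were all lower. Of 31 starts 14 were member genes, 7 of them were lower in KO and 7 did not pass the test, with a median log2 fold change of −0.29. Thbs2, a thrombospondin, was at 52.6 and 52.8 TPM in KO, against 95.2 and 104 TPM in WT, and Dcn, the proteoglycan decorin, at 167 and 176 TPM in KO, against 314 and 282 TPM in WT. Their peaks stood at the 82.8 percentile in KO and the 84.8 percentile in WT for Thbs2, and at 70.1 in KO and 67.6 in WT for Dcn. Fibroblast markers gave 8 member genes of 12, of which 2 were higher and 6 lower. Mfap4, a protein of elastic fibres, fell most clearly, with 65.9 and 65.0 TPM in KO, against 189 and 184 TPM in WT.

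Of the TGF-beta, SRF and YAP target genes only 6 of 30 starts were member genes, while 14 had wide shared peaks and 10 had no WT summit within 1 kb. Tgfb2, a TGF-beta ligand, was at 40.2 and 40.5 TPM in KO, against 21.5 and 21.2 TPM in WT. Fhl2, a LIM protein, was at 365 and 377 TPM in KO, against 299 and 303 TPM in WT, and its weak member peak ranked at 42.6 in KO and 6.54 in WT. However, the KO summit of Fhl2 lay 304 bases away and outside the WT peak, and the gene held a WT peak of fold 33.7. The other 4 did not pass the test.

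Interferon genes split. Of 18 member genes of 31 starts, 4 were higher and 11 lower. Ifit3, an antiviral tetratricopeptide protein, was at 507 and 507 TPM in KO, against 1258 and 1271 TPM in WT (log2 fold change −1.35, SE 0.03, edgeR adjusted p = 2.4e-22), and its relative Ifit3b at 94.9 and 104 TPM in KO, against 248 and 245 TPM in WT. Of the windows of Ifit3, 31.8% are shared with other transcripts, and of those of Ifit3b, 28.6%. Ifit3 and Ifit3b start at bases 34583531 and 34607970 of chromosome 19, in the region of the targeted Acta2. Effects of linked sequence and of Acta2 loss cannot be told apart there. The other interferon genes called lower had smaller log2 fold changes, from −0.40 at Cxcl10 to −0.13 at Ifi35. B2m, also of this list, was higher in KO (log2 fold change 0.19, SE 0.02, edgeR adjusted p = 1.3e-07).

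Among cell cycle genes, 23 of 31 starts were member genes, with 3 higher and 8 lower. Ccnd1, the G1 cyclin D1, was at 102 and 100 TPM in KO, against 157 and 158 TPM in WT, and its peak ranked at 68.2 in KO and 83.9 in WT. Ccnb1, the mitotic cyclin B1, averaged 10.9 ± 0.27 TPM in KO and 16.3 ± 1.8 TPM in WT (SD, n = 2 each). Other genes' transcripts share 25.8% of the windows of Ccnb1. For p53 targets, 13 of 23 starts were member genes, 6 were higher and 1 lower. Pmaip1, a pro-apoptotic BH3 protein, was at 693 and 741 TPM in KO, against 543 and 565 TPM in WT, and Bax, a pore-forming effector of apoptosis, at 1374 and 1378 TPM in KO, against 1201 and 1169 TPM in WT.

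Hox genes, which pattern the body axis, had weaker peaks than most member genes. The 18 member genes among 28 Hox starts had a median percentile of 69.1 in KO and 71.5 in WT, and 10 of them were under 1 TPM in all 4 samples. Of the 7 that could be tested, 4 were lower in KO and 3 did not pass the test. Hoxb5 was at 2.36 and 2.30 TPM in KO, against 7.81 and 8.09 TPM in WT, and Hoxa2 at 0.685 and 1.01 TPM in KO, against 4.76 and 5.15 TPM in WT, while the peak of Hoxa2 stood at the 51.6 percentile in KO and the 51.2 percentile in WT. Of 34 starts of developmental transcription factors 13 were member genes, 2 of 12 tested were higher and 3 lower. Osr1, a zinc-finger factor, was at 85.5 and 94.0 TPM in KO, against 155 and 163 TPM in WT, and Sox11 at 2.43 and 3.24 TPM in KO, against 0.391 and 0.733 TPM in WT. Of 12 neuronal member genes, 9 were under 1 TPM in all samples, although their median peak stood at the 85.2 percentile in KO and the 79.4 percentile in WT. Of the 4 neuronal genes tested, 3 were higher in KO, among them the neurofilament genes Nefm and Nefl, which overlap each other's annotation.

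**Figure D4:**
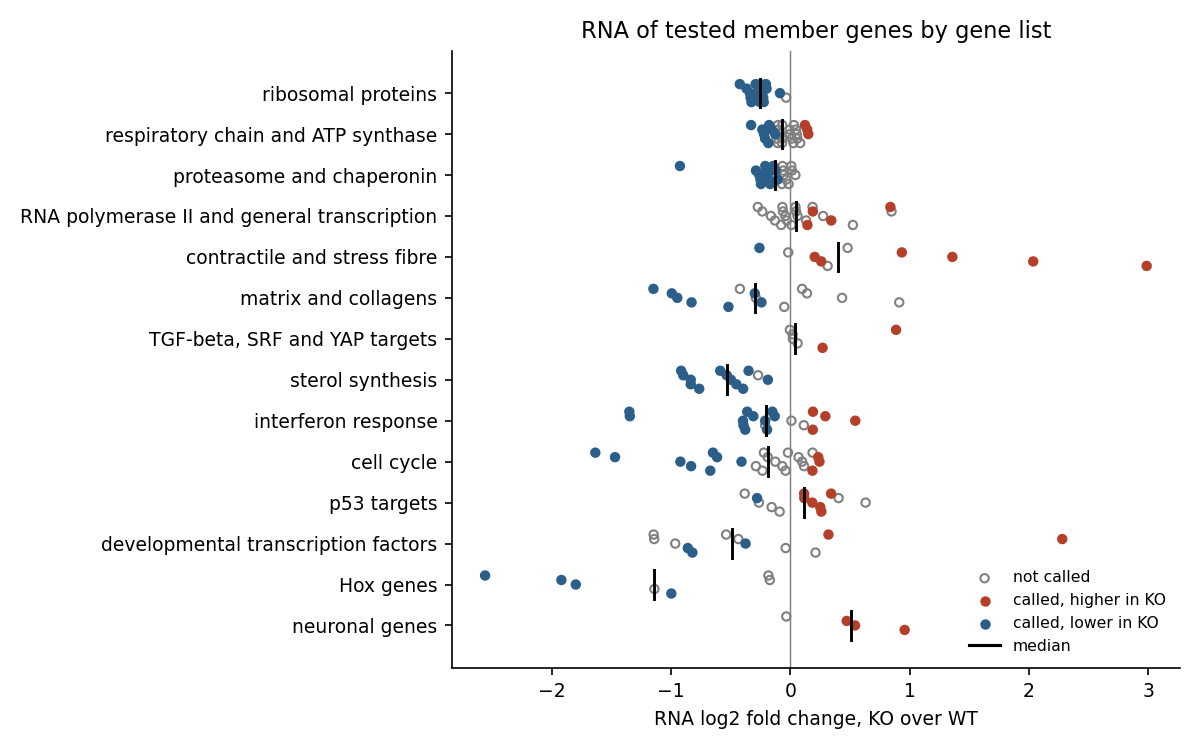
RNA log2 fold change, KO over WT, of the tested member genes of each gene list (1 point per gene, black bars the list medians). Filled points passed the test, red higher and blue lower in KO; sterol synthesis, ribosomal protein and Hox genes lie mostly below 0 and contractile genes mostly above it.

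Among markers of other cell types, 1 of 12 macrophage and leukocyte markers was a member gene, Lyz2, the lysozyme of myeloid cells. It was at 198 and 207 TPM in KO, against 109 and 102 TPM in WT, and its peak ranked at 71.8 in KO and 33.2 in WT in a one-to-one pair. Of 6 endothelial member genes 3 were higher and 1 lower. Eng, a TGF-beta co-receptor, was at 244 and 245 TPM in KO, against 190 and 181 TPM in WT, and Flt1, a VEGF receptor, at 3.38 and 3.85 TPM in KO, against 5.77 and 5.28 TPM in WT. Nppb, the natriuretic peptide BNP, was the single cardiomyocyte marker of 5 member genes that could be tested. It was at 30.5 and 30.8 TPM in KO, against 22.04 and 19.9 TPM in WT, and its call was lost with DESeq2. The 12 cardiomyocyte markers summed to 15.4 and 13.9 CPM in KO, against 13.5 and 14.0 CPM in WT, and these samples overlapped. Both epicardial and mesothelial member genes, Upk3b and Msln, were lower in KO, and the KO summit lay outside the WT peak for each. All 8 markers of this list summed to 314 and 305 CPM in KO, against 311 and 299 CPM in WT, so the list sum was not lower. Without KO replicate 1 the call of Msln, mesothelin, was lost, its samples being at 14.3 and 19.3 TPM in KO, against 24.9 and 22.2 TPM in WT. Since use of strand in the counting is not stated, reads of overlapping genes may not be told apart. This touches B2m (Patl2), Igfbp7 (Polr2b), Rpl13, Rpl5, Atp5o, Ccnd1, Bax, Fdps, Idi1, Hoxa2, Mfap4 (Mapk7) and Eng (Fpgs).

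The bases at the summits differed between promoter peaks and the other shared peaks, given here as a description with no test. In the 200 bases centred on the WT summit, member peaks had a median of 65.0% GC and a CpG ratio of 0.770, against 49.5% GC and 0.207 in the other shared peaks under 3 kb. A CpG ratio of at least 0.6 was reached by 70.2% of the member peaks and 5.95% of the others. A GC box was present in 37.7% of the member peaks, against 5.33% of the others, an ETS match in 5.83%, against 1.32%, and an NRF1 match in 0.691%, against 0.108%. The CCAAT box was present in 13.5% of the member peaks, against 22.4% of the others, a TEAD match in 6.48%, against 14.998%, an AP-1 match in 2.61%, against 14.1%, and a TATA box in 1.96%, against 7.35%. The part of base composition in these shares was not tested.

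Within the member genes, the sequence changed with the rank of the peak. The share with a CpG ratio of at least 0.6 was 26.6% in the lowest decile by WT fold and 91.9% in the highest, the share with a GC box 17.9% and 43.7%, and the share with an AP-1 match 6.38% and 0.911%. Spearman's rho between the CpG ratio and the WT fold percentile was 0.415 over 9872 genes. The 7028 genes at or above a CpG ratio of 0.6 had a median RNA level of 7.42 TPM in KO and 7.07 TPM in WT, and the 2844 below it 1.93 TPM in KO and 1.88 TPM in WT. The relation between rank and RNA was present in both classes, with a rho of 0.393 in KO and 0.404 in WT in the first, and 0.491 in KO and 0.5002 in WT in the second.

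**Figure D5:**
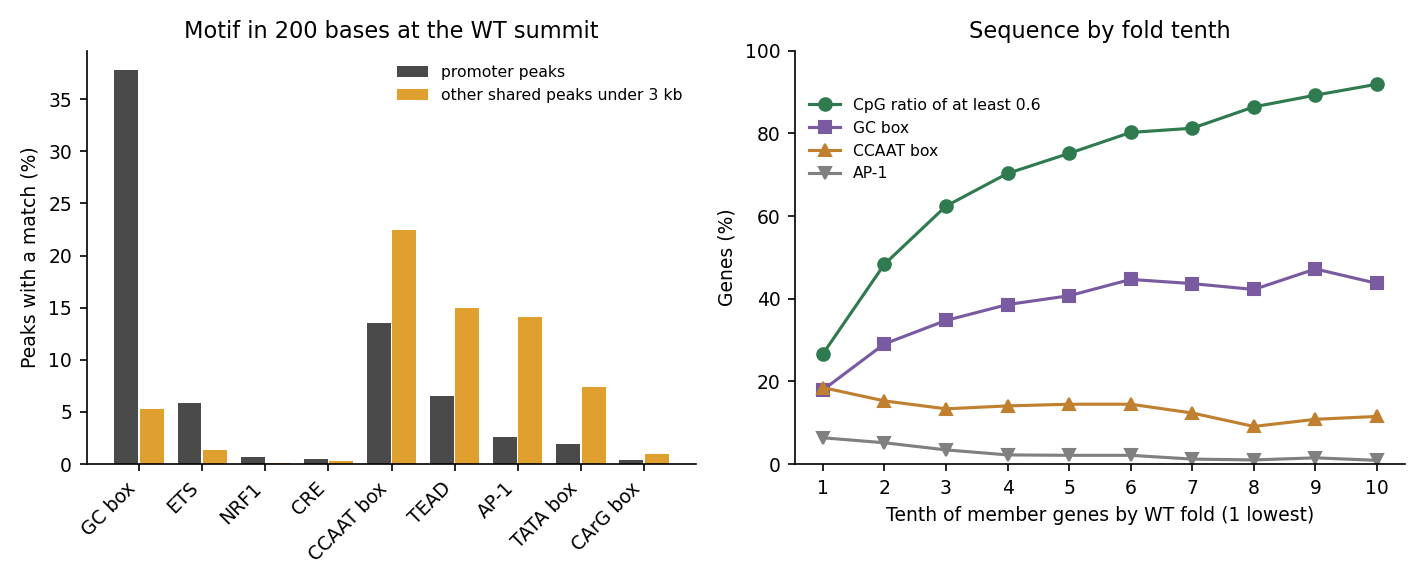
Sequence at the WT summit. Left, the percentage of member peaks (grey) and of other shared peaks under 3 kb (yellow) with each motif in 200 bases; the GC box was present in 37.7% and 5.33%, the AP-1 motif in 2.61% and 14.1%. Right, the percentage of member genes with a CpG ratio of at least 0.6, a GC box, a CCAAT box or an AP-1 match by decile of WT fold; the CpG line climbed to 91.9% in the highest decile.

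RNA calls varied little with these motifs at the summit, with 1 exception. Of the tested member genes with a given motif at the summit, 31.4% (ETS) to 41.2% (CArG box) were called, near the 35.7% of all tested genes, apart from the TATA box. Of 130 tested genes with a TATA box at the summit, 36 were higher and 33 lower in KO (53.1%), against 33.5% of those without it. Over all member peaks the median summit lay 149 bases downstream of the start. Where the TATA box matches at the summit lie relative to the start was not counted. A TATA box was found at the summit in 1.91% of member genes and in the promoter window in 6.26%. Calls were not counted by motifs of the promoter window. CpG-poor member genes were called in 36.8% of cases and CpG-rich ones in 33.0%.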

How the data were processed

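Samples were grouped by labelled genotype: for each of Acta2 KO and WT there were 2 RNA-seq samples and 1 ATAC-seq sample. The authors deposited estimated counts per gene. Trim Galore 0.6, FastQC and, for alignment to mm10 at default settings, STAR 2.5.3a were used, per the labels' protocols. How genes were counted is not stated in the sources, nor is use of strand, so overlapping genes and copies are uncertain. For ATAC-seq the aligner was Bowtie2 2.3 on mm10, followed by removal of non-unique, duplicate and mitochondrial alignments and peak calling with MACS2 per sample without a local background, per the labels' protocols. The sources give neither the version nor the threshold of MACS2. The deposited peak lists hold an integer score, the fold (a ratio to background), the −log10 p-value and the −log10 q-value. Folds came in steps of 0.425 (KO) and 0.411 (WT), and the lowest −log10 q-values were 1.86 (KO) and 1.70 (WT). ATAC-seq depth is unknown.

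The planned test took counts to be whole, and the estimates were rounded for it. It was the quasi-likelihood test of edgeR 4.0.16 (R 4.3.3) on genotype, after filterByExpr with a minimum count of 10 and TMM scaling, with p-values adjusted by Benjamini-Hochberg over 12192 genes and a threshold of 0.05. The procedure was tested on simulated data. TPM divides counts by merged exon length of GENCODE M21, found for 25635 of 25746 genes. Ranks, overlaps and sequence were computed with Python 3.11.15, pandas 2.3.3 and scipy 1.17.1. A KO peak was paired by the longest overlap. Alternatives were other scalings, filters, DESeq2 1.42.0, assumed dispersions, a replicate block, samples left out and stricter peak criteria. Samples with the same replicate number did not deviate together (correlation −0.00072). The members, lists and tests were chosen with earlier results of these data known.

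Named genes were the 5 with the highest RNA, the highest WT fold, the highest fold under 1 TPM, the highest RNA in the lowest quartile of fold, the largest rank rise and fall among tested genes, and the largest called rise and fall, plus up to 2 called genes per list. Genes of one-to-one peak pairs were added after their values were seen.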

Additional observations from a re-analysis of the deposited data

How the results depend on the processing

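Spearman's rho between fold rank and RNA (0.462 in KO and 0.469 in WT) stayed positive under the alternatives that follow, though not in the top 20% of genes by fold (−0.0065 in KO and −0.0308 in WT). It was 0.462 in KO and 0.467 in WT over all member peaks, 0.440 and 0.448 over every start within 1 kb, 0.487 and 0.497 with CPM, 0.190 and 0.198 over genes passing the count filter, and 0.344 and 0.360 with rank by width. With q-values of 5 or more on the −log10 scale it was 0.416 and 0.423, with overlap over 50% of the peak 0.435 and 0.442, within 250 bases 0.397 and 0.403, always KO before WT. Of selections chosen after seeing the data, single starts gave 0.480 in KO and 0.489 in WT and one-to-one pairs 0.453 and 0.460. Single RNA samples gave 0.460 to 0.461 in KO and 0.467 in WT. Ranking by q-value gave the same rho. With peaks called without a local background, fold and q-value rank the same summit signal, so this is no separate check. The cause of these shifts was not tested.

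The counts of member genes called higher and lower in KO (1239 and 1293) fell to 469 and 624 with DESeq2, to 578 and 437 at an assumed coefficient of variation of 0.1 and to 125 and 90 at 0.2. Leaving out 1 sample gave 915 to 1023 higher and 986 to 1063 lower. With the replicate block they were 1251 and 1301. Scaling by library size gave 1351 and 1144 and by upper quartile 1287 and 1254, so that more genes were called higher than lower, the reverse of the order with TMM. Of 61 named genes called, 61 kept the call with the block, 53 with DESeq2, 55 to 59 with 1 sample left out, and 24 at a coefficient of variation of 0.2. Within 250 bases of a start there were 6437 member peaks. Over one-to-one pairs the 402 peaks at least 20 points higher in KO fell to 206. With 2 samples per genotype and 1 ATAC-seq library each, the spread between animals or cultures could not be estimated.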
